A study of Mus musculus with 6 samples.

Results

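The mitosis and G2/M genes described here are 40 genes, from the cyclins that start mitosis to the proteins that divide the cell, and they were taken by gene name from a table of 56448 genes. Each of the 40 names matched 1 row, and all 40 passed the filter on low values, a mean of at least 1 TPM over all libraries, as did 13406 genes in all. TPM scales each library's values to 1 fixed total after dividing reads by transcript length. The libraries came from 4T1, a mouse mammary tumour cell line grown with serum. By the series' design text the line was infected with lentivirus for a lasting knockdown of the microRNA miR-9 and set beside a control group. The libraries carry the genotype label LV2 (3 libraries) or in9 (3 libraries). The labels neither spell out these names nor mark the control, so differences are given as in9 minus LV2. They also do not say whether a group is 1 clone or whether replicates are separate cultures, so any p-value here reflects the spread of these 6 libraries alone, and that spread may be technical.

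In a dividing cell, cyclin A2 and the B cyclins switch on the kinase CDK1, CDC25 phosphatases remove its last brake, and the Polo-like and Aurora kinases then build the spindle. Kinetochores on the centromeres capture microtubules while the spindle checkpoint holds back the anaphase-promoting complex, an enzyme that marks cyclin B and securin for destruction once every chromosome is attached. Most of these genes are transcribed in a wave late in the cell cycle, driven by the MuvB complex with B-MYB and FOXM1. This wave acts through a short promoter element called the cell cycle genes homology region (CHR), often with CCAAT boxes bound by NF-Y upstream. In a bulk culture the level of these transcripts follows the share of cells in G2 and M as well as the RNA per cell, and these cannot be told apart here.

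The CHR is shown first because it is the element through which this wave is known to act. The genes were picked by name as genes of mitosis and G2/M, so a high share with this element could be foreseen. The CHR was searched as TTTGAA or TTCGAA on both strands in the RefSeq promoter table (build GRCm38.p6). Its windows run from 250 bases before to 50 bases from the annotated start. The table held 33 of the 40 genes. It had no row for Ccna2, Cdc25c, Foxm1, Tpx2, Aurkb, Incenp and Kif20a. Of the 33 genes, 26 (78.8%) had a CHR match, against 21.7% of the 27025 genes in the table and 16.4% of the 9188 genes tested here that have a row. The 7 with a row and no match were Ccnb1, Birc5, Mad2l1, Cenpe, Nuf2, Pttg1 and Nusap1. Within 50 bases of the start the shares were 72.7% of the 33 genes and 6.12% of all genes in the table. A CCAAT match on either strand was found in 75.8% of the 33 genes and 41.1% of all, and CHR with CCAAT in 69.7% and 8.61%. The CDE element, searched as GCGGGA or GGCGGG on both strands, occurred in 84.8% of the 33 genes, in 41.5% of all genes in the table and in 73.4% of the genes tested here, a share nearer to that of the mitotic genes. The 2 CDE patterns overlap each other in some promoters, and a match is a description of letters, not a bound site.

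**Figure D1:**
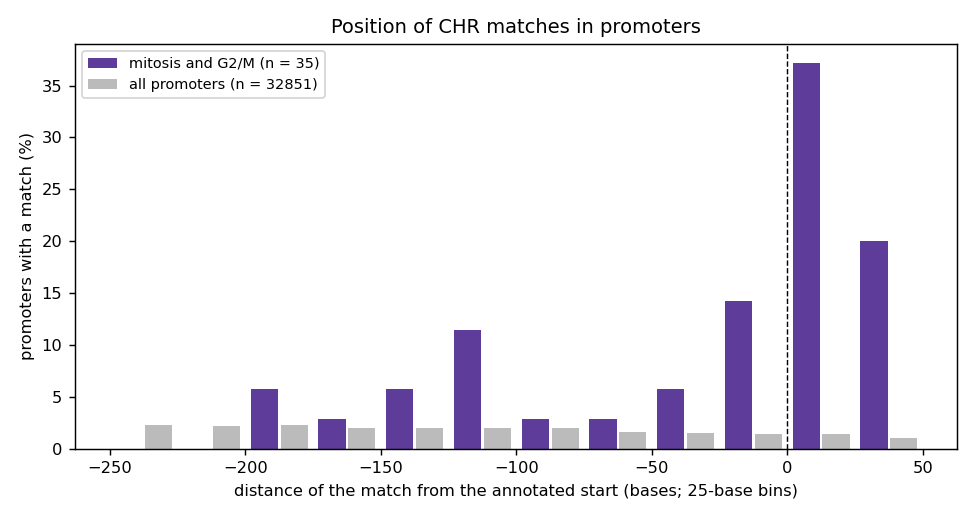
Share of promoters (y axis, percent) in which a CHR match begins in each 25-base bin of distance from the annotated start (x axis, bases), for the 35 promoter windows of the mitosis and G2/M genes and for all 32851 windows. In the bin from 0 to 25 bases after the start 37.1% of the mitotic windows have a match, against 1.43% of all windows.

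The 4 genes with the smallest p-values among those with a CHR match are printed below, from 90 bases before the start to 40 bases from it, with CHR and CCAAT matches on either strand in capitals (build GRCm38.p6). The windows lie at chr2:131186858-131186987 (plus strand) for Cdc25b, chr2:172370531-172370660 (minus strand) for Aurka, chr11:40733398-40733527 (minus strand) for Hmmr and chr2:164769839-164769968 (plus strand) for Ube2c.
Cdc25b: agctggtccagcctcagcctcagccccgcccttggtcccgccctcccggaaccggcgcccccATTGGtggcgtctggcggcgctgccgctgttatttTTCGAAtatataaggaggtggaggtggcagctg
Aurka: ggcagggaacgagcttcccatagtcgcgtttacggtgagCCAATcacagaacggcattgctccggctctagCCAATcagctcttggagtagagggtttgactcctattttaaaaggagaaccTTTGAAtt
Hmmr: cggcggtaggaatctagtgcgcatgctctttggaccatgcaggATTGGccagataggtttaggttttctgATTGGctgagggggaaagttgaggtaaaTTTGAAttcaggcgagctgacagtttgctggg
Ube2c: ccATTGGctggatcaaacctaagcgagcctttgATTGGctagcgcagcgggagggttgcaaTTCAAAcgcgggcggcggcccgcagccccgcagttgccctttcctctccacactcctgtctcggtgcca

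In these stretches the CHR of Cdc25b begins 7 bases, that of Hmmr 8 bases and that of Aurka 32 bases after the start base, while the CHR of Ube2c lies on the opposite strand and begins 29 bases before it. Genes with a CHR match had a median log2 fold change of 0.044 (26 genes), the 7 genes without one 0.027 and the 7 genes without a promoter row 0.030.

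The microRNA itself is not measured by these libraries, and the knockdown could not be checked in them. Its sequence from RefSeq is given with the seed, bases 2 to 8, in capitals, because matches to it in 3' UTRs are where it can act directly on these transcripts.
mmu-miR-9-5p: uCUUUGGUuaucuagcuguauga

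Matches of 7 bases were looked for in 3' UTRs of GENCODE M21 (mm10), taking the longest 3' UTR per gene. A match was ACCAAAG, which pairs with the whole seed, or CCAAAGA, which pairs with all but its last base and has an A opposite base 1. Of the 40 genes, 4 (10.0%) had a match, against 22.25% of the 10949 tested genes with an annotated 3' UTR. Their median 3' UTR was 802.5 bases long, against 1168 bases over those genes. The 4 genes were Hmmr, Nusap1, Cenpa and Cdk1, which had 2. The matches stand in capitals below.
Hmmr: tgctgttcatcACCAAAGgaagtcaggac
Nusap1: gtaccaccaaaACCAAAGctgagaattgc
Cenpa: agtgtttgcagACCAAAGgtcaatttggt
Cdk1 first site: ggatgagaaggCCAAAGAcccgaggatgt
Cdk1 second site: gatggaagtgcACCAAAGctggctgggtt

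The sites lie at chr11:40702564-40702570 (minus strand) in Hmmr, chr2:119649603-119649609 (plus strand) in Nusap1, chr5:30674220-30674226 (plus strand) in Cenpa, and chr10:69338033-69338039 (minus strand) and chr10:69337986-69337992 (minus strand) in Cdk1. The annotated 3' UTR of Cdk1 used here, 3352 bases, is longer than the gene length of 1253 bases in the deposited table, so it is uncertain that the transcripts measured carry these sites. Log2 fold changes of the 4 genes were 0.23 (Hmmr), 0.082 (Nusap1), -0.079 (Cenpa) and -0.044 (Cdk1), with a median of 0.019 against 0.039 for the 36 genes without a match. None of these values passed the test described next.

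All 40 genes were clearly expressed, at mean levels from 16.8 TPM (Sgo1) to 468 TPM (Cdk1) with a median of 94.7 TPM, and in every library their sum was 0.459% to 0.477% of the total TPM. In limma (adjusted p threshold 0.05, Benjamini-Hochberg over all 13406 genes) none of the 40 was called in either direction, where 0.821% of the tested genes (110) were called higher and 0.194% (26) lower. Of the 40, 1 was higher and 4 were lower with an unadjusted limma p below 0.05, against 13.6% and 5.86% of all tested genes. The 2 groups did not overlap in 4 genes with in9 higher and 4 with in9 lower, and over all tested genes this held for 17.4% and 8.08%. The counts of higher genes were below these shares and those of lower genes above them, and neither difference was tested.

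The differences were small as well as uncalled. Log2 fold changes, on the log2(TPM + 1) scale, which slightly understates the change of low genes, ran from -0.17 to 0.23, 27 were positive and 13 negative, and their median was 0.039 (1.03-fold) against 0.061 over all tested genes. The median of the 40 was 0.066 without in9 replicate 1 and 0.020 without in9 replicate 2 or 3. No gene differed by more than 1.3-fold, against 11.3% of all tested genes, which include many of lower level. The 95% intervals of the difference lay within 1.3-fold either way for 36 of the 40 genes and within 1.5-fold for all 40. The lowest bound was 0.809-fold (Ccna2) and the highest 1.40-fold (Hmmr). The median standard deviation of a mitotic gene within a group was 0.060 on the log2 scale, against 0.12 over all tested genes. These genes thus varied less between replicates than the median gene, but their level was also higher (median 94.7 TPM against 18.4 TPM). The spread was not compared with that of genes of like level. After trimmed-mean scaling between libraries 15 of the 40 differences were positive and the median was -0.028, against -0.0013 over all tested genes. Quantile normalization gave 25 positive differences and a median of 0.020, against -0.0037 over all tested genes. With no filter on low values the median was 0.039, against 0.023 over all genes then tested. The 40 thus had the lower median at some settings and the higher at others. Trimmed-mean scaling reversed the sign of 12 of the 40 differences and quantile normalization that of 4. For those genes the sign depended on the scaling.

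**Figure D2:**
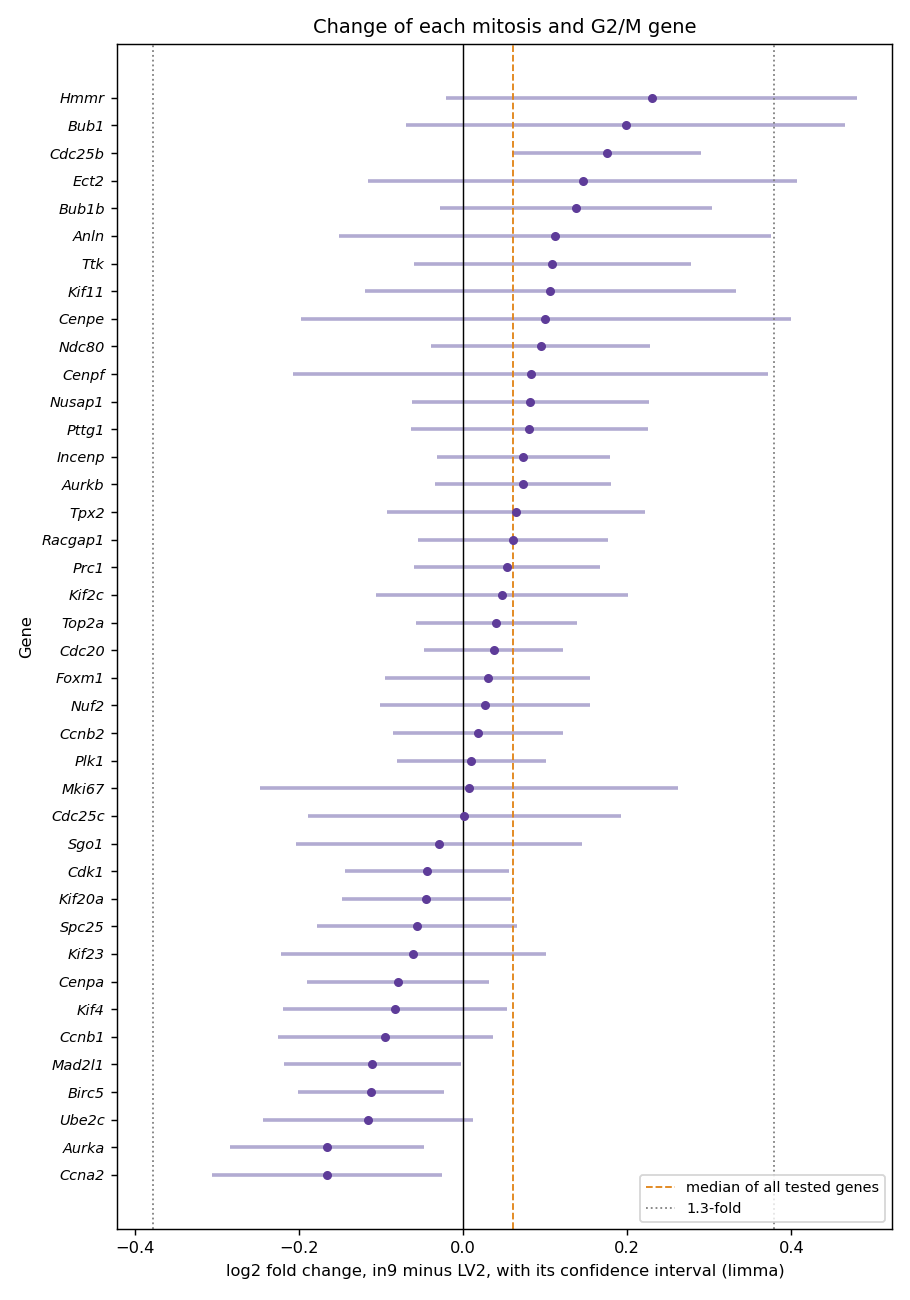
Log2 fold change of each of the 40 genes (x axis, in9 minus LV2 on the log2(TPM + 1) scale) with its 95% interval from limma, sorted by size. The dashed line is the median of all 13406 tested genes (0.061) and the dotted lines are 1.3-fold. All points lie between -0.17 and 0.23, inside the dotted lines.

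Rows named as pseudogenes (suffix -ps) exist for 3 of the genes, Ccnb1-ps (0 to 0.42 TPM), Ccnb2-ps (0.31 to 1.22 TPM) and Kif4-ps (0 TPM). How alike their sequences are to Ccnb1, Ccnb2 and Kif4 was not checked, so the split of reads between them is uncertain. Libraries and cell type markers were checked before the single genes. On the first principal component over all tested genes, in9 replicate 1 was at -2.70, closer to LV2 (-22.2 to -6.98) than the other in9 libraries were (26.1 and 27.8). Read counts are not used here, so the depth of each library is unknown. The 6 markers of the epithelial tumour line were all expressed and summed to 5491 to 5594 TPM across the LV2 and 5076 to 5269.7 TPM across the in9 libraries. Of the 5 fibroblast markers Pdgfra was above 1 TPM, and their sum was 4.74 to 6.70 TPM across the LV2 and 7.95 to 8.43 TPM across the in9 libraries. Of the 7 leukocyte markers Cd68 was above 1 TPM, their sum was 27.6 to 28.9 TPM across the LV2 and 33.7 to 40.6 TPM across the in9 libraries, and the defining Ptprc was at most 0.12 TPM with Adgre1 at 0. Of the 4 endothelial markers Cdh5 was above 1 TPM, and their sum was 1.72 to 1.95 TPM across the LV2 and 1.97 to 2.17 TPM across the in9 libraries. The fibroblast, leukocyte and endothelial sums were thus higher in every in9 library than in any LV2 library, but each was mostly Pdgfra, Cd68 or Cdh5 alone. The tumour marker sum was lower, and most of it was Vim (mean 3238 TPM over the LV2 and 2986 TPM over the in9 libraries). Krt8, Krt18 and Epcam were also lower in every in9 library. Krt7 and Cdh1 overlapped between the groups, and Cdh1 pointed the other way (log2 fold change 0.19). Whether these marker levels have a part in the values below was not tested.

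The 5 genes with an unadjusted p under 0.05 lie, on mm10, at chr2:131186949-131198497, plus strand (Cdc25b), chr2:172356190-172370535, minus strand (Aurka), chr11:117849251-117855743, plus strand (Birc5), chr3:36564865-36572150, minus strand (Ccna2) and chr6:66535390-66547220, plus strand (Mad2l1). Values are for whole genes.

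Among the cyclins, CDK1 and its phosphatases, Cdc25b and Ccna2 pointed in opposite directions. Cdc25b, the phosphatase that activates cyclin-bound CDK1 at the entry into mitosis, was at 78.8, 78.0 and 75.4 TPM in LV2 replicates 1 to 3 and 84.0, 90.8 and 87.9 TPM in in9 replicates 1 to 3. All in9 libraries were above all LV2 libraries, and the log2 fold change was 0.17 ± 0.048 (SE, n = 3 per group), with an adjusted p = 0.133 from limma. Ccna2, the A-type cyclin of S phase and early mitosis, was at 177, 173 and 172 TPM in LV2 replicates 1 to 3 and 143, 165 and 158 TPM in in9 replicates 1 to 3. Every in9 library was below every LV2 library, with in9 replicate 1 lowest, and the log2 fold change was -0.17 ± 0.058 (SE), adjusted p = 0.197 in limma. With the trend of values on gene length removed from each library, a setting added after the data had been seen, Ccna2 was the 1 gene of the 40 called (log2 fold change -0.24, adjusted p = 0.0436 in limma, lower), at which setting 197 of all genes were called higher and 137 lower.

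None of the other genes of this group reached an unadjusted p under 0.05. Ccnb1, which encodes the main mitotic cyclin, was at 137, 144 and 141 TPM in LV2 replicates 1 to 3 and 124, 132 and 139 TPM in in9 replicates 1 to 3. In9 replicates 1 and 2 lay below the LV2 range and replicate 3 inside it, and the log2 fold change was -0.095 ± 0.055 (SE). Ccnb2, the second B cyclin, was at 110.4 ± 3.21 TPM over the LV2 and 112 ± 2.39 TPM over the in9 libraries (SD, n = 3). Cdk1, the most abundant of the 40, was at 475 ± 11.9 TPM over the LV2 and 461 ± 15.5 TPM over the in9 libraries, and the phosphatase gene Cdc25c at 23.5 ± 1.76 TPM over the LV2 and 23.5 ± 1.53 TPM over the in9 libraries. These 3 genes overlapped between the groups. Foxm1, the forkhead transcription factor that drives many of these genes, was at 71.9, 72.6 and 73.9 TPM in LV2 replicates 1 to 3 and 70.0, 76.5 and 76.7 TPM in in9 replicates 1 to 3. Its groups overlapped and its log2 fold change was 0.030 ± 0.052 (SE).

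**Figure D3:**
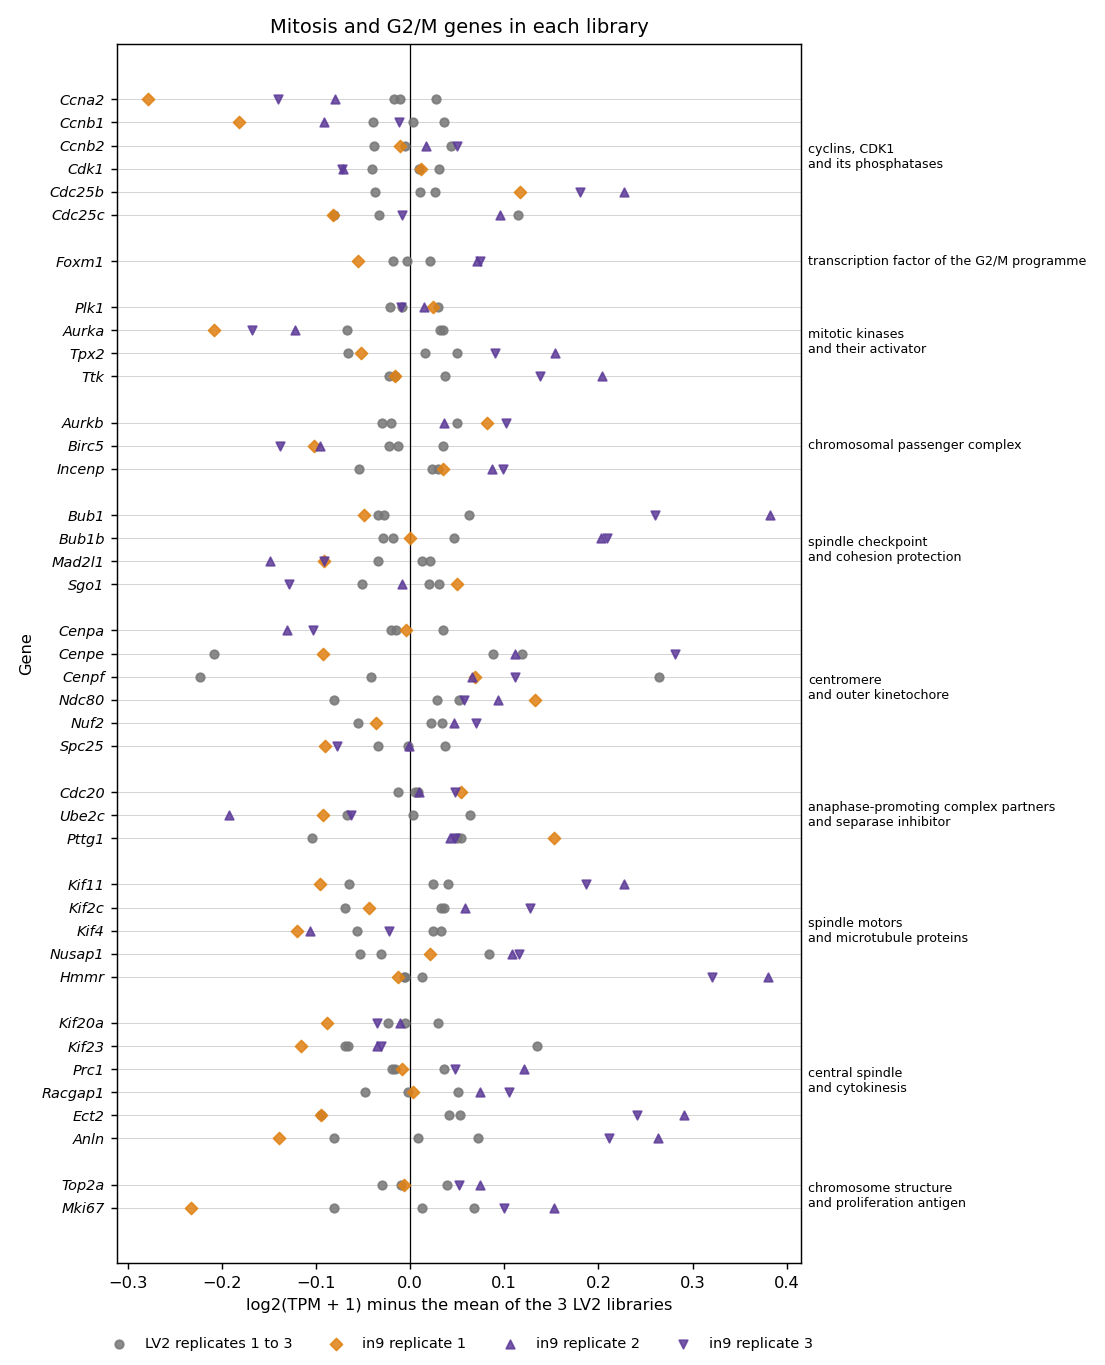
Difference of each library from the mean of the 3 LV2 libraries, in log2(TPM + 1) (x axis), for the 40 genes grouped by role (y axis). Grey points are LV2, orange diamonds in9 replicate 1 and purple triangles in9 replicates 2 and 3. In Bub1, Hmmr, Ect2 and Anln the purple triangles lie to the right and the orange diamond among or to the left of the grey points.

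In the group of Aurka, Plk1, Ttk and the activator Tpx2, Aurka had the smallest p-value. Aurka, the Aurora kinase of the spindle poles, was at 101, 108 and 109 TPM in LV2 replicates 1 to 3 and 91.7, 97.3 and 94.3 TPM in in9 replicates 1 to 3. All in9 values were below all LV2 values, and the log2 fold change was -0.17 ± 0.049 (SE), with limma giving an adjusted p = 0.150. Tpx2, whose protein activates Aurora A on the spindle, was at 103 ± 4.24 TPM over the LV2 and 108 ± 7.82 TPM over the in9 libraries (SD, n = 3), and its groups overlapped. Ttk, the checkpoint kinase also known as MPS1, was at 32.1, 30.8 and 30.9 TPM in LV2 replicates 1 to 3 and 30.9, 36.2 and 34.5 TPM in in9 replicates 1 to 3. In9 replicate 1 lay within the LV2 range and the other in9 libraries above it (log2 fold change 0.11 ± 0.071 SE). Plk1, the Polo-like kinase, was nearly flat at 145, 139.7 and 141 TPM in LV2 replicates 1 to 3 and 144, 143 and 141 TPM in in9 replicates 1 to 3, and its 95% interval ran from 0.945-fold to 1.07-fold.

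The chromosomal passenger complex corrects faulty attachments and later marks the cleavage plane, and its 3 genes in this set did not share a sign. Birc5, which encodes survivin, was at 271, 272 and 282 TPM in LV2 replicates 1 to 3 and 256, 257 and 249.6 TPM in in9 replicates 1 to 3. The groups did not overlap, in9 being below LV2, and the log2 fold change was -0.11 ± 0.037 (SE), for which limma gave an adjusted p = 0.181. Aurkb, the kinase of the complex, was at 89.8, 95.0 and 90.5 TPM in LV2 replicates 1 to 3 and 97.2, 94.1 and 98.5 TPM in in9 replicates 1 to 3, and Incenp, its scaffold, at 131.4, 132.0 and 124.5 TPM in LV2 replicates 1 to 3 and 132.5, 137.4 and 138.4 TPM in in9 replicates 1 to 3. Incenp was slightly higher in each in9 library than in any LV2 library, Aurkb overlapped, and both had a log2 fold change near 0.073, opposite in sign to Birc5.

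Among the spindle checkpoint genes the in9 libraries disagreed on Bub1 and Bub1b. Bub1, a checkpoint kinase at the kinetochore, was at 41.5, 38.9 and 38.7 TPM in LV2 replicates 1 to 3 and 38.3, 52.0 and 47.7 TPM in in9 replicates 1 to 3. In9 replicates 2 and 3 were above all LV2 libraries while in9 replicate 1 was below them, and over all libraries the log2 fold change was 0.20 ± 0.11 (SE), adjusted p = 0.378 in limma. Bub1b, which encodes the checkpoint inhibitor BUBR1, was at 64.9, 62.0 and 61.5 TPM in LV2 replicates 1 to 3 and 62.8, 72.5 and 72.8 TPM in in9 replicates 1 to 3, with in9 replicate 1 inside the LV2 range and the other in9 libraries above it. Mad2l1, whose protein MAD2 is the core of the checkpoint signal, was at 67.4, 67.0 and 64.8 TPM in LV2 replicates 1 to 3 and 62.3, 59.8 and 62.3 TPM in in9 replicates 1 to 3. It was lower in every in9 library, and the log2 fold change was -0.11 ± 0.045 (SE), adjusted p = 0.246 in limma. Sgo1, the protector of centromeric cohesion, was the least abundant of the 40, at 16.9 ± 0.549 TPM over the LV2 and 16.6 ± 1.1 TPM over the in9 libraries (SD, n = 3).

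Of the 6 centromere and outer kinetochore genes none reached an unadjusted p under 0.05. Cenpa, the histone H3 variant that marks centromeres, was at 332, 344 and 331 TPM in LV2 replicates 1 to 3 and 335, 306 and 312 TPM in in9 replicates 1 to 3. The in9 replicates 2 and 3 were lowest and in9 replicate 1 lay inside the LV2 range. Ndc80, which encodes the microtubule-binding subunit of the outer kinetochore, was at 44.4, 48.0 and 48.8 TPM in LV2 replicates 1 to 3 and 51.7, 50.3 and 49.0 TPM in in9 replicates 1 to 3, so that in9 was higher in each library by a narrow margin (log2 fold change 0.094 ± 0.056 SE). Its partners Nuf2 and Spc25 had log2 fold changes of 0.027 and -0.056. The long genes Cenpe, a kinetochore motor, and Cenpf scattered most within LV2, where Cenpf ranged from 27.8 to 39.3 TPM and Cenpe from 40.9 to 51.6 TPM, and their in9 libraries, at 34.1 to 35.3 TPM and 44.4 to 57.8 TPM, overlapped them.

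None of the 3 partners and substrates of the anaphase-promoting complex reached an unadjusted p under 0.05. Ube2c, its ubiquitin-conjugating enzyme, was at 299, 313 and 327 TPM in LV2 replicates 1 to 3 and 293, 274 and 299 TPM in in9 replicates 1 to 3. The groups overlapped narrowly and the log2 fold change was -0.12 ± 0.053 (SE). Cdc20, the mitotic activator of the complex, was at 238.6, 241.6 and 242.1 TPM in LV2 replicates 1 to 3 and 250.1, 242.3 and 248.9 TPM in in9 replicates 1 to 3. Each in9 library was above each LV2 library, by a small margin, and the 95% interval, 0.968-fold to 1.09-fold, was the narrowest of the 40. Pttg1, which encodes securin, the inhibitor of separase, was at 165, 148 and 165 TPM in LV2 replicates 1 to 3 and 177, 164 and 164 TPM in in9 replicates 1 to 3, with in9 replicate 1 highest and the groups overlapping.

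Hmmr and the cytokinesis genes Ect2 and Anln had the same order of libraries as Bub1 within in9, with replicate 1 lowest and replicate 2 highest. Hmmr, a microtubule-associated hyaluronan receptor of the spindle, was at 43.3, 43.8 and 43.2 TPM in LV2 replicates 1 to 3 and 43.0, 56.9 and 54.5 TPM in in9 replicates 1 to 3. The LV2 libraries were nearly equal, in9 replicate 1 lay just below them, and in9 replicates 2 and 3 were above, which over all libraries gave the largest log2 fold change of the 40, 0.23 ± 0.10 (SE), for which limma gave an adjusted p = 0.289. Ect2, the exchange factor that activates RhoA at the cleavage furrow, was at 64.5, 64.0 and 58.1 TPM in LV2 replicates 1 to 3 and 58.1, 76.2 and 73.6 TPM in in9 replicates 1 to 3. Anln, which encodes the furrow scaffold anillin, was at 167, 159 and 149.9 TPM in LV2 replicates 1 to 3 and 144, 190.5 and 184 TPM in in9 replicates 1 to 3. In9 replicate 1 was level with the lowest LV2 library in Ect2 and below it in Anln, and the other in9 libraries were above the highest. Their log2 fold changes of 0.15 and 0.11 had intervals that included 0.

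No gene of the motor or midzone roles, Hmmr, Ect2 and Anln included, reached an unadjusted p under 0.05. Kif4, the chromokinesin also called KIF4A, was at 33.2, 33.4 and 31.3 TPM in LV2 replicates 1 to 3 and 29.9, 30.2 and 32.1 TPM in in9 replicates 1 to 3. Racgap1, the partner of Kif23 in the centralspindlin complex, was at 115, 112 and 119.7 TPM in LV2 replicates 1 to 3 and 116, 122 and 124 TPM in in9 replicates 1 to 3. Both overlapped between groups, with log2 fold changes of -0.083 ± 0.057 (SE) and 0.061 ± 0.048 (SE). The remaining genes of these roles, the motors Kif11, Kif2c, Kif20a and Kif23 and the microtubule proteins Nusap1 and Prc1, had log2 fold changes between -0.061 (Kif23) and 0.11 (Kif11). The proliferation antigen Mki67 was at 109, 105 and 98.5 TPM in LV2 replicates 1 to 3 and 88.6, 116 and 112 TPM in in9 replicates 1 to 3. In9 replicate 1 was the lowest of all libraries and in9 replicate 2 the highest, and the log2 fold change was 0.0067 ± 0.11 (SE). Top2a, the topoisomerase that untangles sister chromatids, was at 289, 299 and 285 TPM in LV2 replicates 1 to 3 and 289, 306 and 301 TPM in in9 replicates 1 to 3, with overlapping groups and a log2 fold change of 0.040 ± 0.041 (SE).

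Results that rest on in9 replicate 1 were recomputed without it. In 28 of the 40 genes that library was below both other in9 libraries and in 7 above both, and it held the lowest value of all 6 libraries in 14 genes. Without it limma called 6 of the 40 genes higher, where 7.25% of all genes (971) were called higher, and none was called lower, where 3.8% (509) were. The 6 were Hmmr (log2 fold change 0.35 ± 0.045 SE, adjusted p = 0.0172), Bub1 (0.32 ± 0.062, adjusted p = 0.0356), Ect2 (0.27 ± 0.061, adjusted p = 0.0499), Anln (0.24 ± 0.054, adjusted p = 0.0492), Bub1b (0.21 ± 0.044, adjusted p = 0.0436) and Cdc25b (0.20 ± 0.042, adjusted p = 0.0408). This comparison had 2 in9 and 3 LV2 libraries. Leaving out any other single library gave no call among the 40. The labels give no ground for setting in9 replicate 1 aside.

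These 6 genes were 3089 to 4605 bases long, and among the 40 the longer genes tended to have the higher log2 fold changes. Across the 40 genes the log2 fold change and the gene length in the deposited table had a Spearman correlation of 0.442, and 0.602 without in9 replicate 1. Over all tested genes the values were 0.177 and 0.247. The points are genes measured in the same libraries, so these are descriptions and carry no p. The 10 longest of the 40 (4086 to 11130 bases) had a median log2 fold change of 0.073, with 9 positive, and the 10 shortest (696 to 1831 bases) of -0.050, with 4 positive. The 10 longest also differed between replicates of a group: set against the LV2 mean, their median was -0.073 in LV2 replicate 3 and 0.040 in LV2 replicate 2, and -0.094 in in9 replicate 1 against 0.13 and 0.11 in in9 replicates 2 and 3. The 10 shortest stayed between -0.019 and 0.0087 in LV2 and between -0.068 and -0.0078 in in9. With the length trend removed the correlation over the 40 genes was 0.062. That step takes out the relation to length over all tested genes, so a low value follows largely from the step itself. At this setting 13 differences were positive, and the median was -0.026 against -0.0027 over all tested genes. Whether RNA quality or library preparation had a part in this pattern was not tested.

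**Figure D4:**
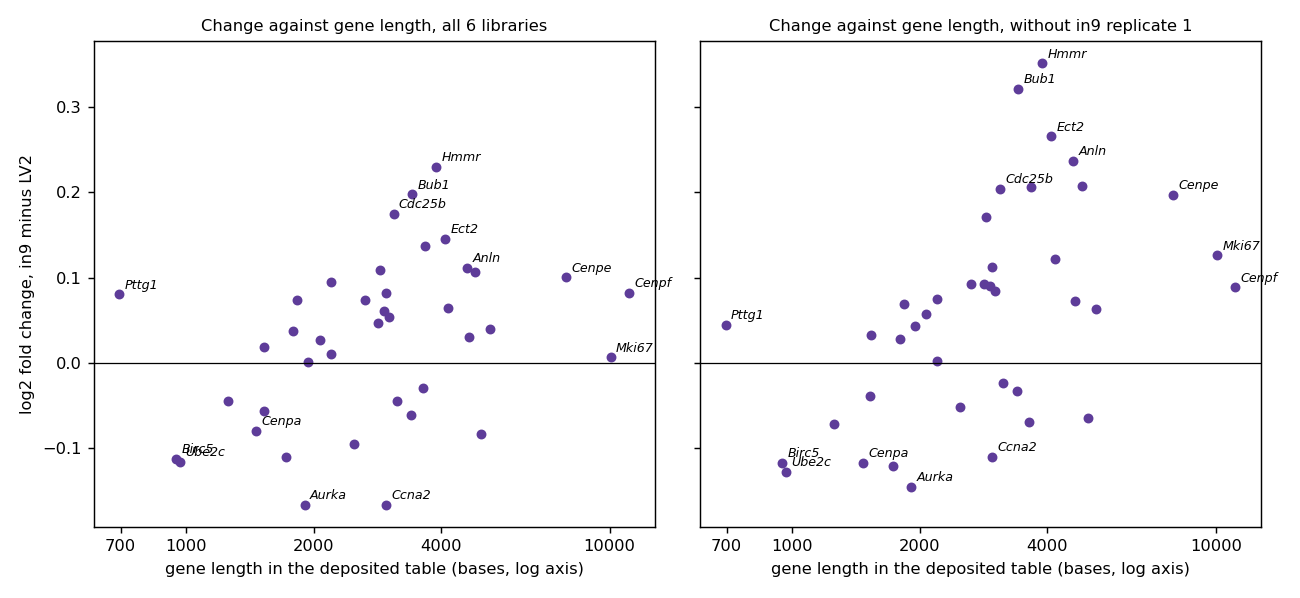
Log2 fold change (y axis, in9 minus LV2) against gene length in the deposited table (x axis, bases, log axis) for the 40 genes, with all 6 libraries (left) and without in9 replicate 1 (right). The short genes Birc5 and Ube2c lie below 0 in both panels, while Pttg1, the shortest, lies above 0 in both (0.081 and 0.045). Hmmr, Bub1, Ect2 and Anln lie highest at 0.24 to 0.35 in the right panel.

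Other genes of the mitotic machinery, from lists drawn up with earlier results of these data known, were read from the same fit, and none was called in limma. Of 26 further centromere and kinetochore genes 12 had positive and 14 negative log2 fold changes (median -0.027, and 0.0016 without in9 replicate 1), and at an unadjusted p under 0.05 there was 1 higher gene against 3 lower ones. The smallest p-values belonged to Cenpc1, a centromere scaffold (log2 fold change 0.33 ± 0.11 SE), and Cenpn (-0.16 ± 0.058). Of 12 further checkpoint and passenger genes 6 were positive and 6 negative, and 2 lower ones had an unadjusted p under 0.05, namely Spdl1, which recruits dynein to kinetochores (-0.23 ± 0.055), and Bub3 (-0.096 ± 0.038). Of 20 further spindle genes 15 were positive with a median of 0.048 (-0.017 after trimmed-mean scaling and -0.030 with the length trend removed, 0.10 without in9 replicate 1, 0.014 without in9 replicate 2 and 0.023 without in9 replicate 3), and none had an unadjusted p under 0.05. The smallest p-values there were those of the kinesin genes Kif20b (0.19 ± 0.086) and Kifc1 (0.099 ± 0.058).

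Of 18 genes of the anaphase-promoting complex and its regulators 11 were negative (median -0.037). Leaving out in9 replicate 1 moved that median to -0.10 and leaving out in9 replicate 2 to -0.0038, and it was -0.057 when in9 replicate 3 and -0.069 when LV2 replicate 2 was left out. Ube2s, the enzyme that lengthens its ubiquitin chains, was at 395 to 404 TPM across the LV2 and 339 to 360 TPM across the in9 libraries (log2 fold change -0.20 ± 0.039 SE, adjusted p = 0.0692 in limma), and was called lower without in9 replicate 1 (adjusted p = 0.0151 in limma). The subunit gene Anapc16 had a log2 fold change of -0.20 ± 0.083. Of 19 cohesin and condensin genes, which hold sister chromatids and compact chromosomes, 16 were positive with a median of 0.12, led by p-value by Ncaph2 (0.14 ± 0.042) and Smc1a (0.13 ± 0.058), and 3 were called higher without in9 replicate 1, where 7.25% of all genes were. The median of that list was 0.056 without in9 replicate 2, 0.076 without LV2 replicate 3 or in9 replicate 3, 0.050 after trimmed-mean scaling and 0.026 with the length trend removed.

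Of 18 genes of G2/M entry and its checkpoint 5 had an unadjusted p under 0.05, each of them lower, while 11 of the 18 had positive log2 fold changes and the median was 0.054 (-0.012 after trimmed-mean scaling and -0.0064 with the length trend removed). Leaving out LV2 replicate 1 gave a median of 0.087, LV2 replicate 3 one of 0.010 and in9 replicate 2 one of 0.032. Among the 5 were Pbk, a mitotic kinase (-0.20 ± 0.054), and Cks2, a CDK-binding protein (-0.18 ± 0.049). Of 19 B-MYB, DREAM and E2F regulators (median 0.020, from -0.0004 without LV2 replicate 2 to 0.054 without in9 replicate 1, and -0.035 after trimmed-mean scaling) 2 were higher and 1 was lower at that level. The lower one was Tfdp1, the dimer partner of E2F factors, at 166 to 181 TPM across the LV2 and 129 to 146 TPM across the in9 libraries (-0.32 ± 0.064, adjusted p = 0.0723 in limma, and 0.0361 after trimmed-mean scaling). Rbl2, the pocket protein p130 of DREAM, was low, at 2.37 to 2.78 TPM across the LV2 and 3.80 to 5.27 TPM across the in9 libraries (0.54 ± 0.15, adjusted p = 0.139 in limma). Of 37 DNA replication and G1/S genes 26 were negative (median -0.068), 7 of them lower with an unadjusted p under 0.05 and 4 others higher. For all 9 lists such counts stand against 13.6% higher and 5.86% lower over all tested genes. The smallest p-values of the G1/S list were those of Tyms, thymidylate synthase (-0.38 ± 0.061, adjusted p = 0.0520 in limma), and the helicase subunit gene Mcm6 (-0.23 ± 0.048, adjusted p = 0.0816). Of 8 CDK inhibitor genes 5 were tested. Cdkn2c was at 57.5 to 61.3 TPM across the LV2 and 69.0 to 77.7 TPM across the in9 libraries (0.28 ± 0.060, adjusted p = 0.0838 in limma) and Cdkn1b at 31.2 to 36.5 and 36.5 to 43.0 TPM. Cdkn1a overlapped between groups, and Cdkn2a and Cdkn2b were listed at 0 in every library.

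**Figure D5:**
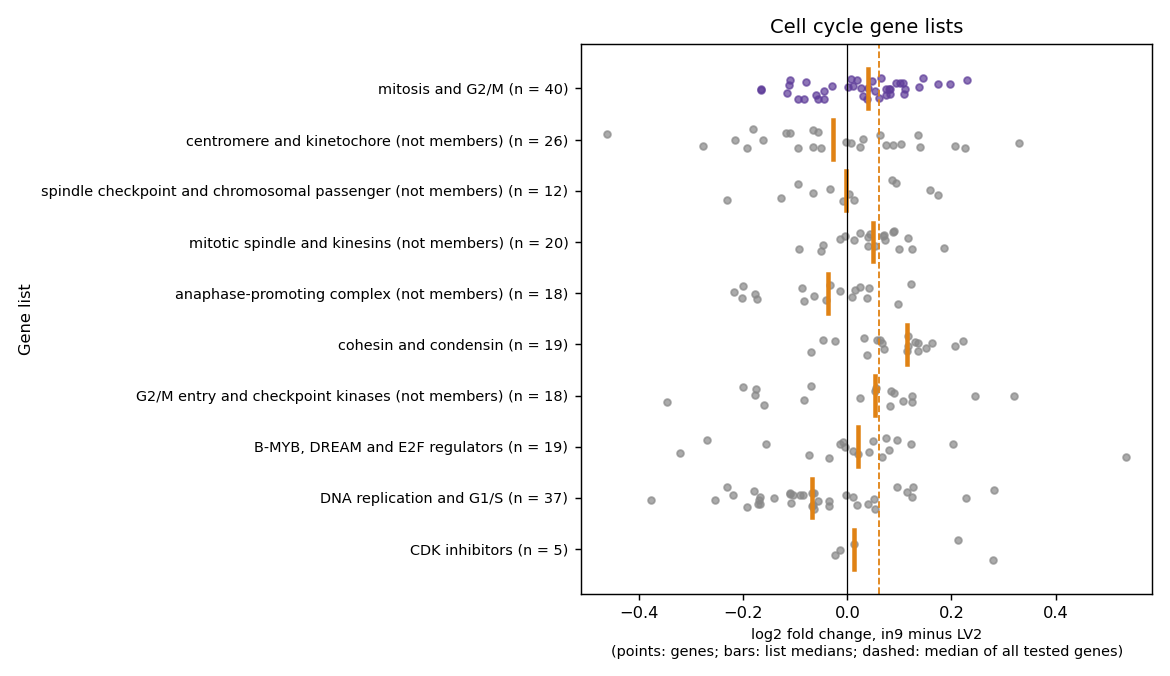
Log2 fold change (x axis, in9 minus LV2) of each tested gene in the mitosis and G2/M set and in 9 other lists (y axis, with the number of tested genes). Orange bars are list medians, from -0.068 for DNA replication and G1/S to 0.12 for cohesin and condensin, and the dashed line is the median of all tested genes at 0.061.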

How the data were processed

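Messenger RNA of 6 cultured 4T1 libraries, 3 labelled LV2 and 3 labelled in9, was measured by sequencing; the design text names a microarray, but the deposited table holds TPM values. The authors deposited TPM for 56448 genes with 2 decimals and a mean per group, which equalled the mean of the libraries. The genome was mm10, per the submitters' processing notes, and for aligner, quantifier and annotation: not given in the sources used here. TPM keeps no read counts, so the depth of each library and its precision are unknown and count models were not applied. No 2 libraries were identical. Values were tested as log2(TPM + 1), for genes with a mean of at least 1 TPM, with limma 3.58.1 in R 4.3.3 (intensity trend, two-sided, Benjamini-Hochberg adjustment over 13406 genes, threshold 0.05), after a test on simulated data. Tables and figures used python 3.11.15, pandas 2.3.3, numpy 2.4.6 and matplotlib 3.10.9.

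The 40 genes and the other lists were chosen with earlier results of these data known. Values in every library are given for called genes, otherwise for the 15 of smallest unadjusted p and at least 2 per role where it has them, with Anln and Plk1, Cdc20 and Foxm1 added after their values were seen. From each other list the called genes or the 2 of smallest p were named, and Cdkn1a, Cdkn2a and Cdkn2b were added likewise. The alternatives tried were no filter on low values, a minimum of 5 TPM, 0.1 as pseudocount, trimmed-mean scaling (30% of ratios and 5% of levels trimmed), quantile normalization, no intensity trend, the replicate number as a block and leaving out each library. Removing a smooth trend on gene length from each library (span 0.3) was added after the data were seen. Promoter and microRNA sequences are RefSeq's. Protein sequences were not used here.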

Additional observations from a re-analysis of the deposited data

How the results depend on the processing

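Among the 40 genes no alternative gave a call other than the 6 higher genes without in9 replicate 1 and 1 lower gene, Ccna2, with the length trend removed. Leaving out 1 library gave 0 to 6 higher genes, 0 lower and medians of 0.020 to 0.066. Over all genes the counts of 110 higher and 26 lower became 24 and 6 without a filter, 150 and 45 at 5 TPM, 27 and 4 without the intensity trend, 86 and 35 after trimmed-mean scaling and 197 and 137 with the length trend removed, and leaving out 1 library gave 6 to 971 and 1 to 509. The cause was not tested. The median of the 40 was -0.028 after trimmed-mean scaling, -0.026 with the length trend removed and 0.020 after quantile normalization. The labels do not say whether same-numbered libraries were prepared together. Their deviations from the group means were hardly correlated (-0.097, 0.022 and -0.046). With 3 libraries per group this cannot show whether they were paired. With the replicate block 1 gene of all was higher, 1 lower and none of the 40 called (smallest adjusted p = 0.310 in limma, Aurka). With the length trend removed 1 gene was lower in each of the checkpoint, anaphase-promoting complex and B-MYB lists and 3 in the G1/S list. Trimmed-mean scaling gave 1 lower gene in the B-MYB and 1 in the G1/S list, and a minimum of 5 TPM 1 in the G1/S list. Leaving out 1 library gave 0 to 1 lower for the anaphase-promoting complex and B-MYB lists, 0 to 3 higher for cohesin and condensin, 0 to 2 lower for G2/M entry, 0 to 2 higher and 0 to 5 lower for G1/S and 0 to 1 higher for CDK inhibitors, each upper value being without in9 replicate 1.

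None of the genes whose value changed sign had passed the test. With the length trend removed these were Ccnb2 -0.0134, Cdc25c -0.0486, Foxm1 -0.0631, Plk1 -0.0477, Tpx2 -0.0229, Cenpe -0.025, Cenpf -0.0661, Nuf2 -0.0278, Cdc20 -0.0066, Kif2c -0.0247, Prc1 -0.0201, Racgap1 -0.012, Top2a -0.0581 and Mki67 -0.1348. After trimmed-mean scaling the log2 fold changes were Ccnb2 -0.0481, Cdc25c -0.0629, Foxm1 -0.0363, Plk1 -0.0566, Tpx2 -0.0025, Nuf2 -0.0392, Cdc20 -0.0296, Kif2c -0.0185, Prc1 -0.0133, Racgap1 -0.0056, Top2a -0.0268 and Mki67 -0.0598. After quantile normalization they were Cdk1 0.0107, Cdc25c -0.0671, Nuf2 -0.0198 and Mki67 -0.0069. Leaving out 1 library gave ranges that crossed 0 for Ccnb2 (-0.001 to 0.0403), Cdc25c (-0.0455 to 0.0587), Cenpe (-0.0036 to 0.1969), Cenpf (-0.0292 to 0.2146), Kif23 (-0.0953 to 0.0065), Mki67 (-0.0662 to 0.1261), Nuf2 (-0.001 to 0.0579), Plk1 (-0.0005 to 0.025) and Sgo1 (-0.0688 to 0.0209). The depth of the libraries is unknown, so its limits could not be given.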
